A study of Mus musculus with 8 samples.

Results

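The genes described are the proteasome subunit genes of mouse, taken as every row of the deposited count table whose gene symbol was Psma, Psmb, Psmc, Psmd, Psme, Psmf or Psmg followed by a number. The rule gave 48 of the 45706 genes in the table. It found subunits of the proteasome, and also activators, an inhibitor and assembly chaperones that share these symbols. RNA sequencing had been carried out on the liver of 4 WT and 4 SA/SA mice, with 1 library per mouse. All 8 mice were C57BL/6J females aged 4 months, fed regular chow and fasted overnight before harvest. SA/SA mice were homozygous for PLIN5 S155A, a serine to alanine change in the lipid droplet protein perilipin 5, made by CRISPR-Cas9 in the germline, carried by every cell of the body and checked by sequencing in a founder mouse. The labels name the tissue as liver and the cell type as hepatocytes. Hepatocyte markers summed to between 89810 and 128200 CPM (CPM being the count scaled to a common library size after TMM normalization), and markers of endothelial, stellate, Kupffer and bile duct cells were detected as well, so the values were read as whole liver. In RNA of a whole tissue, fewer cells of a type and less RNA per cell cannot be told apart.

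The proteasome is the large protease that degrades ubiquitin-tagged proteins. Its core is a barrel of alpha and beta rings, and proteolysis is carried out inside the barrel by 3 of the beta subunits, which are encoded by Psmb5, Psmb6 and Psmb7. A regulatory particle caps the barrel, in which ATPases (Psmc genes) unfold the substrate and non-ATPase subunits (Psmd genes) bind and remove ubiquitin. Interferons induce the immunosubunits Psmb8, Psmb9 and Psmb10, which take the places of Psmb5, Psmb6 and Psmb7, and also the activator made of Psme1 and Psme2, which helps generate peptides for antigen presentation. In liver the proteasome serves protein turnover, and the transcription factor encoded by Nfe2l1 is known to raise the subunit genes together when proteasome activity is short.

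Promoters are shown for 5 genes, the constitutive Psmb5, Psmb6 and Psmc6 and the inducible Psme1 and Psmb9. A link between these sequences and the variation between mice was not tested. RefSeq promoters (250 bases before and 50 after a start site, build GRCm38.p6) were present for 40 of the 48 genes. Each sequence below runs 5′ to 3′ on the gene's strand from 250 bases before the start site and stops 30 bases into the transcript. Capitals mark TGACNNNGC in Psmb5 and Psmb6, TGACNNNGC and CCGGAAG in Psmc6, GAAANNGAA in Psme1 and CCAAT in Psmb9, each on either strand, and the marked matches do not overlap.
Psmb5, GRCm38.p6 chr14:54617966-54618245, strand -: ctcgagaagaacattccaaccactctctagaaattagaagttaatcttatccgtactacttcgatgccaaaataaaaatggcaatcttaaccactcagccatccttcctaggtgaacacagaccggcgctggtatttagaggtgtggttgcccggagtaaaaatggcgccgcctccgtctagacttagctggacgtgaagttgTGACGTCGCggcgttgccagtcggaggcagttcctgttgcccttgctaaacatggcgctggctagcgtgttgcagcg
Psmb6, GRCm38.p6 chr11:70525107-70525386, strand +: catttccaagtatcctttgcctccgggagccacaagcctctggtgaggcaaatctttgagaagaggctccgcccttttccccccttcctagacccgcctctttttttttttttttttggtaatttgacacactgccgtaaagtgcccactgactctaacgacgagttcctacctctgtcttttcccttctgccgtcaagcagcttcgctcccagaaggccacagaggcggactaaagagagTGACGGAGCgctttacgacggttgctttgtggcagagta
Psmc6, GRCm38.p6 chr14:45329574-45329853, strand +: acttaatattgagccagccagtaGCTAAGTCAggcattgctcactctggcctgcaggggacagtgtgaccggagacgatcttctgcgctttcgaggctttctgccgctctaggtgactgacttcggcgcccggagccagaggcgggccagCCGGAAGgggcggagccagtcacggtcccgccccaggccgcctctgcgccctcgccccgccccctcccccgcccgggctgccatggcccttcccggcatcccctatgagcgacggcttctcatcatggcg
Psme1, GRCm38.p6 chr14:55578244-55578523, strand +: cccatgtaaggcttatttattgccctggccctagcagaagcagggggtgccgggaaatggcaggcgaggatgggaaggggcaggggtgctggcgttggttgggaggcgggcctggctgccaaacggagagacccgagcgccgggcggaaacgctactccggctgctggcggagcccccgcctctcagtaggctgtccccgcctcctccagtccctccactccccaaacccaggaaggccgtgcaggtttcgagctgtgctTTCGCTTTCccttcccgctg
Psmb9, GRCm38.p6 chr17:34187301-34187580, strand -: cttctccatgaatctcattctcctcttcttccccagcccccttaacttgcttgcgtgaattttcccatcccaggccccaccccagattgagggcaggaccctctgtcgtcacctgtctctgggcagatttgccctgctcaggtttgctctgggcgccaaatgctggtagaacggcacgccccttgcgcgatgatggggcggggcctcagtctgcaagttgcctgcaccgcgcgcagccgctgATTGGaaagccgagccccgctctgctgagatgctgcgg
TGACNNNGC is the core of the element read by Nfe2l1 and Nfe2l2, CCGGAAG is a form of the ETS factor motif, GAAANNGAA is a core of the element read by interferon regulatory factors, and CCAAT is the CCAAT box. Both strands of the 300 base windows were searched. CCGGAAG was found in 11 of 27 promoters of the constitutive subunits (40.7%), and in 8.86% of all 32851 promoters in the table. TGACNNNGC was found in 4 of the 27, namely those of Psmb5, Psmb6, Psmc6 and Psmd12 (14.8%), and in 12.4% of all promoters. CCAAT was found in 10 of the 27 (37.0%), against 37.4% of all promoters. Among the 6 promoters of Psmb8, Psmb9, Psmb10, Psme1 and Psme2, CCAAT was found in Psmb9 and GAAANNGAA in Psme1. GAAANNGAA was found in 8.56% of all promoters and in 4 of the 27 of the constitutive subunits (14.8%). These matches are a description of the windows searched.

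Of the 48 genes, 47 had enough counts to be tested and Psmb11, the beta subunit of the thymus, had 0 counts in all 8 mice, which allows a level of up to 0.0556 to 0.0791 CPM (3 counts per library, for counting error only). Total counts were between 39709830 and 54540612 per mouse, of which the 48 genes took between 0.378% and 0.449%. Expression of Plin5, the altered gene, had a mean of 206 CPM (SD 32.2) in the WT group and 328 CPM (SD 117.4) in the SA/SA group. The genotypes overlapped, at 182.5 to 253.6 CPM in WT mice and 191.7 to 457 CPM in SA/SA mice. The counts per gene do not carry the sequence change. The animal numbers in the labels were under 200 for replicates 1 and 4 of each genotype and over 800 for replicates 2 and 3, without a statement of what they mean. The liver of SA/SA replicate 3 stood apart by 5 plasma cell markers, at 2101 CPM in sum against at most 44.2 CPM in WT mice, and by 13 lymphocyte markers, at 54.0 CPM in sum against 15.9 to 30.8 CPM in WT mice. None of these markers was at 0 in all mice. Plasma cells and lymphocytes are known to express immunosubunits, and their part in the values below was not tested. Results that turn on this mouse are given with and without it.

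The highest levels among these genes in the fasted liver were those of constitutive subunits, although Psme2, Psme1 and Psmd9 lay within their range. Levels between genes were compared as CPM per kilobase of the longest annotated transcript. The 31 constitutive subunits of the core and the regulatory particle, leaving out Psma8, had a median of 64.4 CPM per kilobase and spanned 7.31-fold from 22.6 (Psmc6) to 165 (Psmb6). The beta ring had the highest median, at 83.6 CPM per kilobase over 7 genes, followed by the ATPases at 68.2 over 6 genes, the alpha ring at 58.0 over 7 genes and the non-ATPase subunits at 42.4 over 11 genes. With the union of exons as length the ATPases, at 63.1, lay above the beta ring, at 59.7, and Psmb6 was at 85.2, so the order depends on the length used. Psmb6, which encodes the caspase-like catalytic subunit, was at 165 ± 13.6 CPM per kilobase and Psmb4, a structural beta subunit, at 164 ± 14.6 (SD, n = 8), which did not differ beyond their spread. Psmb5, the chymotrypsin-like catalytic subunit, followed at 143 ± 14.7, and its range of mean ± SD met those of both. Psma6 of the alpha ring came next at 99.4 ± 7.03 CPM per kilobase.

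Most of the other groups were lower. The assembly chaperones of the core (Psmg1 to Psmg4) were between 6.98 and 16.8 CPM per kilobase, and those of the base (Psmd5, Psmd9 and Psmd10) between 5.38 and 29.0. The inhibitor Psmf1 was at 9.26 ± 0.840 CPM per kilobase. Psme2 of the interferon-induced activator was at 76.3 ± 10.8 and its partner Psme1 at 45.7 ± 6.12, both above the nuclear activator subunit Psme3 at 19.2 ± 1.56 and the large activator Psme4 at 11.9 ± 1.22. Psma8, which replaces an alpha subunit in the testis, was at 0.288 ± 0.136 CPM per kilobase with 13 to 45 counts per mouse.

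The immunosubunits were expressed below the catalytic subunits they replace. Psmb10 was at 21.7 ± 7.37 CPM per kilobase, Psmb8 at 13.8 ± 2.72 and Psmb9 at 5.06 ± 1.004. As a percentage of the level per kilobase of Psmb5 in the same mouse, Psmb8 was 8.40, 13.8, 8.22 and 11.4 in WT replicates 1 to 4 and 7.18, 12.5, 10.2 and 7.10 in SA/SA replicates 1 to 4. Psmb9 was between 1.88% and 3.66% of Psmb6 over the 8 mice. Psmb10 was 33.5, 66.1, 47.9 and 46.2% of Psmb7 in WT replicates 1 to 4, and 37.9, 80.3, 62.8 and 35.8% in SA/SA replicates 1 to 4. For each pair the genotypes overlapped, and replicate 2 of each genotype had the highest value of its genotype except for Psmb9 in WT mice. The length used weighs on these percentages, since the longest transcript of Psmb7 had 2849 bases and that of Psmb10 had 1311.

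**Figure D1:**
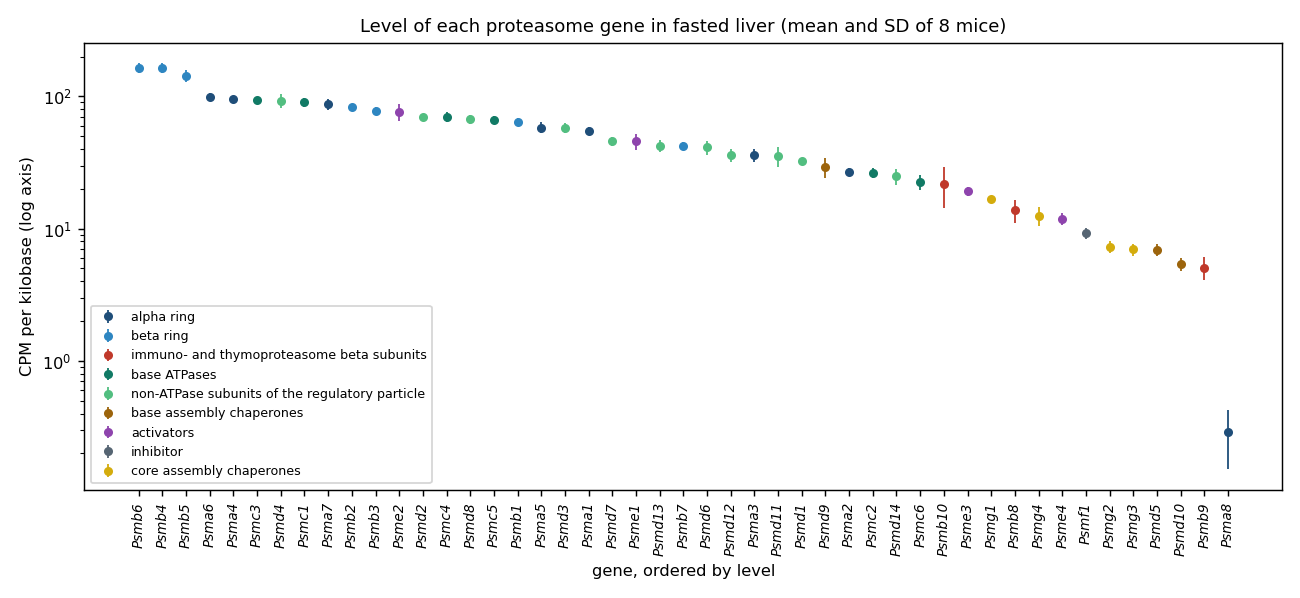
Level of 47 proteasome genes in CPM per kilobase of the longest transcript (log axis), ordered by level. Points are means and bars SDs of 8 mice, colours give the role; the constitutive subunits lie between 22.6 and 165, and Psma8 lies lowest at 0.288.

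Values of replicates are given in the order 1 to 4. The first question was whether loss of the phosphorylation site of PLIN5 changed the expression of these genes. No proteasome gene differed between genotypes by edgeR's quasi-likelihood test at an adjusted p under 0.05, with 0 of 47 called, where 0% of all 14629 genes tested were called. At an unadjusted p under 0.05, 1 of 47 genes passed and was higher in SA/SA mice, where 3.4% of all genes passed, 1.42% in that direction and 1.98% in the other. Small differences nevertheless pointed mostly one way: 38 of the 47 log2 fold changes of SA/SA over WT were above 0 (80.9%), with a median of 0.10, where 48.8% of all genes were above 0, with a median of -0.01. The 95% intervals of 44 of the 47 genes stayed within 1.5-fold in either direction, as did those of 7285 of all 14629 genes tested. Among the 3173 genes at least as abundant as the lowest constitutive subunit, 57.3% of log2 fold changes were above 0, with a median of 0.02. Of these 3173 genes, 2645 had intervals within 1.5-fold.

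The direction was carried by the constitutive subunits. All 7 beta ring genes, all 6 ATPase genes and all 11 non-ATPase genes had values above 0, with medians of 0.11, 0.11 and 0.11, and 5 of 8 alpha ring genes had, with a median of 0.04. These genes varied together between mice, so their values do not count as separate observations, and 0 of them passed at an adjusted p of 0.05. Summed over the 32 genes of the rings and the regulatory particle, Psma8 included, the level was 3678, 3381, 3288 and 3164 CPM in WT replicates 1 to 4. It was 3681, 3564, 3408 and 3840 CPM in SA/SA replicates 1 to 4. WT replicate 1 was above SA/SA replicates 2 and 3, so the genotypes overlapped. The median over the 47 genes fell to 0.05 without WT replicate 4, the lowest mouse, with 33 of 47 above 0, and to 0.06 without SA/SA replicate 4, the highest, with 36 of 47 above 0. Scaling by library size alone gave 0.06 with 34 of 47 above 0, and moved the median of all genes to -0.04. Within the animals numbered under 200 the median was 0.11, with 37 of 47 above 0, and within those numbered over 800 it was 0.06, with 35 of 47 above 0.

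**Figure D2:**
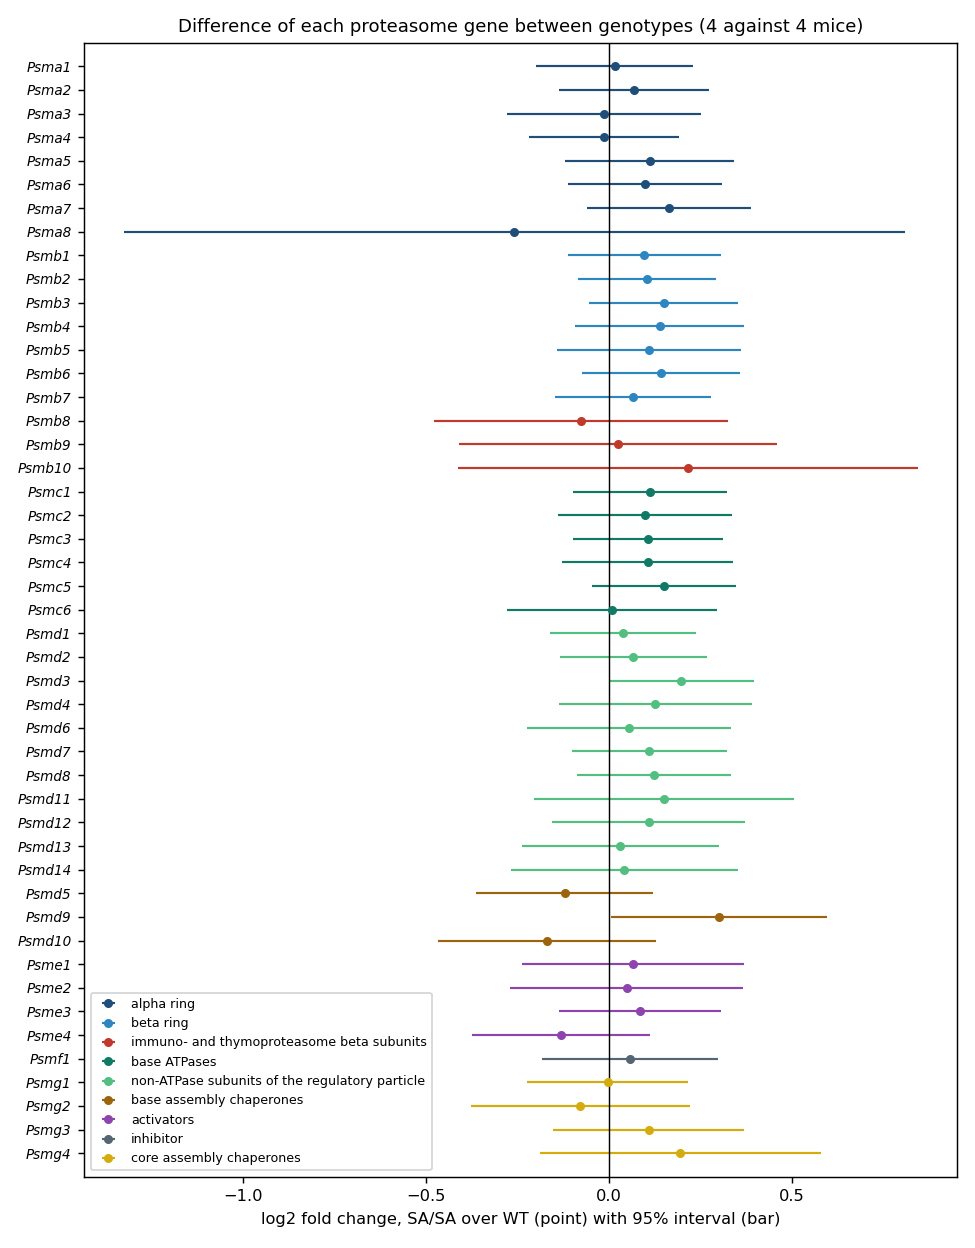
Log2 fold change of SA/SA over WT mice for 47 proteasome genes (x axis), by role (colour). Points are edgeR estimates and bars 95% intervals from 4 against 4 mice; 38 points lie above 0, and Psmd9 has the one interval that leaves out 0.

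Psmd3 and Psmc5 were the genes whose genotypes did not overlap, with SA/SA above WT for both, where 2.3% of all genes tested had no overlap, 0.943% with SA/SA above WT and 1.36% with the reverse. Psmd3 (ENSMUSG00000017221; chromosome 11, 98682554 to 98695979, forward strand), a scaffold subunit of the lid of the regulatory particle, was at 157, 164, 145 and 158 CPM in WT mice and at 183, 176, 168 and 187 CPM in SA/SA mice. Its log2 fold change was 0.20 ± 0.09 (SE; edgeR p = 0.0513, adjusted p = 0.993), and the exact permutation test gave p = 0.0286, the smallest that 4 mice against 4 allow. Psmc5 (ENSMUSG00000020708; chromosome 11, 106256154 to 106263120, forward strand), an ATPase of the base, was at 88.4, 89.6, 92.6 and 80.1 CPM in WT mice and at 99.1, 100.3, 93.0 and 96.5 CPM in SA/SA mice. The gap between the highest WT and the lowest SA/SA mouse was small beside the spread, and the log2 fold change was 0.15 ± 0.09 (SE; edgeR p = 0.120, adjusted p = 0.993; exact permutation p = 0.0286). Any gene without overlap gets this permutation p, so for both genes it only restates the lack of overlap. An antisense gene, Gm12356, shares exon bases with Psmd3, and the use of strand in the counting is not given in the sources used here.

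Psmd9, a chaperone that helps assemble the ATPase ring, was the gene that passed at an unadjusted p. It was at 69.3, 69.3, 62.5 and 72.6 CPM in WT mice and at 64.7, 87.5, 84.6 and 100.3 CPM in SA/SA mice. SA/SA replicate 1 lay among the WT mice and the other three above them. With library size alone, with the replicate block, and without WT replicate 3, WT replicate 4, SA/SA replicate 2 or SA/SA replicate 4, 0 of the 47 genes passed at an unadjusted p under 0.05. The log2 fold change was 0.30 ± 0.13 (SE; edgeR p = 0.0469, adjusted p = 0.993; exact permutation p = 0.114). The other chaperones of the base had values in the opposite direction, with log2 fold changes of -0.17 ± 0.13 (SE) for Psmd10 and -0.12 ± 0.11 for Psmd5, which bind other ATPases while the base is assembled. The gene Gm26745 shares exon bases with Psmd9 on the opposite strand.

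Of the catalytic subunits, Psmb6 was at 144, 168, 154 and 140 CPM in WT mice and at 163, 177, 158 and 172 CPM in SA/SA mice, with a log2 fold change of 0.14 ± 0.10 (SE). Psmb5 was at 135, 120, 128 and 110 CPM in WT mice and at 152, 126, 117.4 and 137 CPM in SA/SA mice, with 0.11 ± 0.11. Psmb7, the trypsin-like subunit, was at 125, 126, 116.7 and 104 CPM in WT mice and at 123, 123, 119 and 129 CPM in SA/SA mice, with 0.07 ± 0.10. The genotypes overlapped for all 3 genes. In the alpha ring the value furthest above 0 was that of Psma7, at 142, 126, 111 and 121 CPM in WT mice and 140, 138, 135 and 148 CPM in SA/SA mice, with 0.16 ± 0.10. Psmb3 of the beta ring had 0.15 ± 0.09, and was between 104 and 118 CPM in WT and between 114 and 130 CPM in SA/SA mice. At the other end, Psmc6 had 0.01 ± 0.13 and Psmd13 0.03 ± 0.12, the values nearest 0 among the ATPases and non-ATPase subunits. Psma8 had -0.26 ± 0.48 on 13 to 45 counts.

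The activators and the inhibitor showed no call either. Psme4, the large activator also known as PA200, was at 92.1, 71.4, 74.8 and 84.1 CPM in WT mice and at 73.8, 77.5, 66.3 and 76.8 CPM in SA/SA mice, with a log2 fold change of -0.13 ± 0.11 (SE). Psme3 had 0.09 ± 0.10 and Psmf1 0.06 ± 0.11. Of the core chaperones, which pair up to start the alpha ring, Psmg4 had 0.20 ± 0.17 and Psmg2 -0.08 ± 0.13, and 2 of the 4 were above 0.

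Genes around the proteasome were read from a list of 37, of which 36 were found in the table and 35 tested. By edgeR and by DESeq2, 0 of them passed at an adjusted p under 0.05, and by edgeR 0 of 35 passed at an unadjusted p under 0.05, where 3.4% of all genes passed. Their median log2 fold change was 0.02, with 19 of 35 above 0 (54.3%), where 48.8% of all genes were. Adrm1 and Sem1, subunits of the regulatory particle that the name rule leaves out, had 0.20 ± 0.11 (SE) and 0.15 ± 0.14, and Pomp, the maturation factor of the core, had 0.15 ± 0.12, all 3 on the side of the constitutive subunits. Nfe2l1 had a mean of 178 CPM (SD 32.3) in the WT group and 196 CPM (SD 41.4) in the SA/SA group, with 0.14 ± 0.17 (SE). Nfe2l2, the related factor of the oxidative stress response, had means of 63.7 and 54.9 CPM (SD 4.002 and 11.9), with -0.21 ± 0.15. Of the 35 genes, Nsfl1c, a cofactor of the Vcp unfoldase, and Rps27a, which encodes ubiquitin fused to a ribosomal protein, had SA/SA mice above WT mice without overlap (0.943% of all genes), with 0.18 ± 0.09 and 0.16 ± 0.10; they were named after their values were seen.

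**Figure D3:**
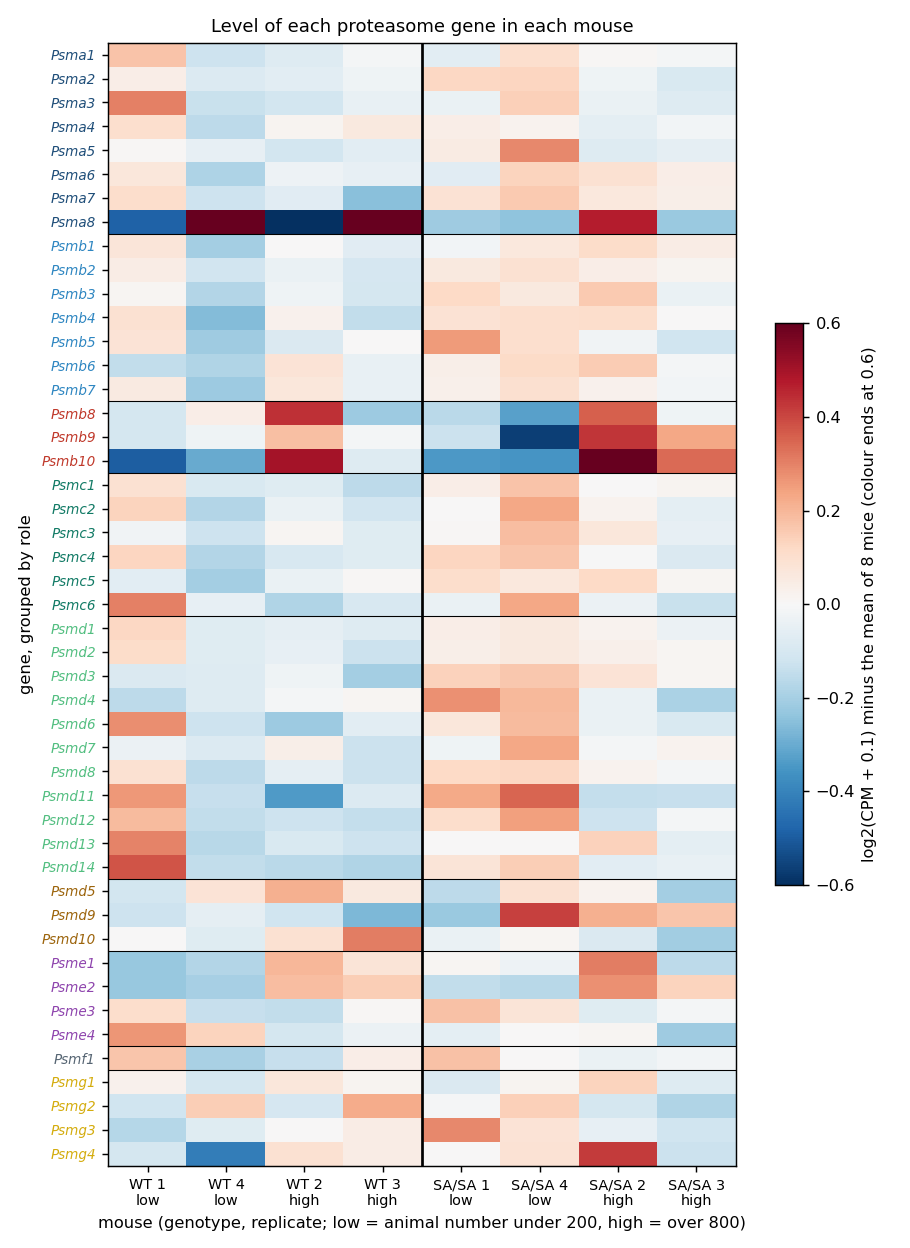
Deviation of each of 47 proteasome genes from its mean over 8 mice, as log2(CPM + 0.1), for each mouse (columns) and gene (rows, grouped by role). The colour scale ends at 0.6, which Psma8 and Psmb10 exceed; WT replicate 4 is below the mean for 31 of the 32 genes of the rings and the regulatory particle and SA/SA replicate 4 above it for 31 of 32, while the immunosubunits follow other mice.

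The second question was how these genes varied between mice, whatever their genotype. From here on the constitutive subunits are the 32 genes of the rings and the regulatory particle, Psma8 included. They varied little. Their coefficient of variation over the 8 mice had a median of 8.41%, and of 8.26% without Psma8. It was 11.9% for the genes at least as abundant as the lowest of them other than Psma8, and 19.0% for all genes tested. They also varied together. After the genotype means were subtracted from log2 CPM, pairs of the 32 genes had a median Pearson r of 0.55 over 8 mice, where the median over all pairs of genes tested was -0.001. All these values share the same libraries and scaling factors, and scaling by library size alone gave 0.70. SA/SA replicate 4 was above the mean of the 8 mice for 31 of the 32 genes, WT replicate 1 and SA/SA replicate 1 for 25 each, and WT replicate 4 for 1.

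Each gene was also set against the mean of the other constitutive subunits. The ATPases Psmc2 and Psmc4 were most like it, with r = 0.96 and 0.95 over 8 mice, followed by Psmb2 and Psmd8 at 0.95 each. Psma8 had the lowest r of the 32 genes, at -0.57 on few counts. Psmb6 had r = 0.12, and Psmd4, a ubiquitin receptor of the regulatory particle, had 0.25. Psmc5 and Psmd3, whose genotypes did not overlap, had 0.37 and 0.44. Psme3, Psmf1 and Psme4 had r of 0.65, 0.63 and 0.58, whereas the core chaperones were between -0.11 and 0.38. Outside the name rule, Usp14, the deubiquitinase of the regulatory particle, had the highest r of the listed pathway genes, at 0.88. It was named after its value was seen. The listed genes that control proteasome gene transcription went both ways. Nfe2l1 had -0.45, Mafk -0.55 and Bach1 -0.15, whereas Ngly1 had 0.80, Ddi2 0.63, Nfe2l2 0.57, Keap1 0.31 and Mafg 0.11. These are descriptions over 8 mice.

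**Figure D4:**
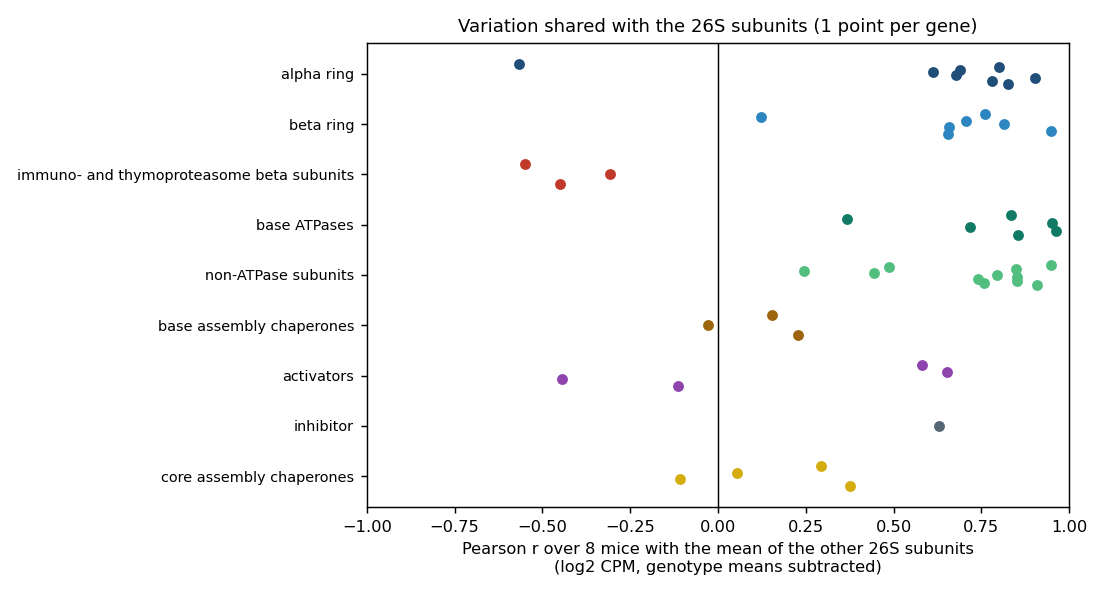
Pearson r over 8 mice (x axis) between each of 47 proteasome genes and the mean of the other constitutive subunits (Psma8 included), by role (rows), on log2 CPM with genotype means subtracted. Psmc2 lies furthest right at 0.96; the immunosubunits, Psma8, Psme1, Psme2, Psmd5 and Psmg2 lie left of 0.

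The immunosubunits and the activator Psme1 and Psme2 formed the other pattern. Pairs of these 5 genes had a median r of 0.76, and pairs of one of them with a constitutive subunit -0.34. Genotype means were subtracted and means by animal number were not. These r and the differences by animal number given below are therefore not separate observations. Psmb10 (ENSMUSG00000031897; chromosome 8, 105935735 to 105938444, reverse strand) was at 19.3, 38.4, 25.7 and 22.0 CPM in WT mice and at 21.4, 45.3, 34.4 and 21.2 CPM in SA/SA mice. Psmb8 (chromosome 17, 34197721 to 34201454, forward strand) was at 24.1, 35.1, 22.3 and 26.6 CPM in WT mice and at 23.2, 33.2, 25.4 and 20.7 CPM in SA/SA mice. Psmb9 (chromosome 17, 34181987 to 34187764, reverse strand), which lies beside Tap1 and shares exon bases with it on the opposite strand, was at 13.3, 16.3, 14.2 and 14.1 CPM in WT mice and at 13.1, 19.3, 16.8 and 9.67 CPM in SA/SA mice. Replicate 2 of each genotype was the highest for all 3 genes.

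Genotype made no difference that exceeded this spread. The log2 fold changes of SA/SA over WT were 0.21 ± 0.28 (SE) for Psmb10, -0.08 ± 0.18 for Psmb8 and 0.03 ± 0.19 for Psmb9, with edgeR adjusted p = 0.993, 0.996 and 0.999. Without SA/SA replicate 2 that of Psmb10 was -0.03, and without SA/SA replicate 3, the mouse with plasma cell markers, that of Psmb9 was -0.04. Psme1 had 0.06 ± 0.14 and Psme2 0.05 ± 0.14.

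The means of all 5 genes were higher in the mice with animal numbers over 800, although none of the 5 passed the test of edgeR. Psme2 was at 82.7, 80.6, 88.0 and 79.9 CPM in those mice and at 62.2, 63.3, 65.7 and 64.9 CPM in the mice numbered under 200, so that the ranges lay apart. Psmb10 and Psmb9 did not overlap either, and 6.85% of all genes tested had no overlap, 3.53% with the high numbers above the low ones. With genotype in the fit, the log2 differences of high over low numbers were 0.77 ± 0.15 (SE) for Psmb10, 0.41 ± 0.15 for Psmb9, 0.37 ± 0.08 for Psme2, 0.30 ± 0.16 for Psmb8 and 0.22 ± 0.12 for Psme1. By edgeR none of the 47 genes and 0 of 14629 genes were called at an adjusted p under 0.05, with adjusted p = 0.143 for Psmb10 and 0.159 for Psme2, while 12.8% of all genes had an unadjusted p under 0.05. DESeq2 called 408 genes, Psmb10 (adjusted p = 0.00109) and Psme2 (adjusted p = 0.00114) among them. Without WT replicate 3, edgeR called 111 genes, of which Psmb10 was one (adjusted p = 0.0272). Without SA/SA replicate 3 the differences were 0.81 for Psmb10 and 0.39 for both Psmb9 and Psme2. Within a genotype 2 genes had exceptions: Psmb8 in WT replicate 3 was below both WT mice with low numbers, and Psme1 in SA/SA replicate 3 was below both SA/SA mice with low numbers. The comparison by animal number was made after the values of these genes were seen.

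The constitutive subunits lay in the other direction. Their median log2 difference of high over low numbers was -0.08, with 6 of 32 above 0. Of all genes tested, 7197 of 14629 were above 0. Of those at least as abundant as the lowest of the 32 without Psma8, 1921 of 3173 were above 0. Psma5 was the one whose mice did not overlap, at 66.4 to 69.0 CPM with high numbers and 69.3 to 87.5 CPM with low numbers. Whether the effect of genotype differed between the number groups was tested as an interaction in edgeR, in which 0 of 47 genes and 0 of 14629 were called at an adjusted p under 0.05. At an unadjusted p under 0.05, 1 of 47 genes passed against 11.1% of all genes. That gene was Psmd4, named after its values were seen, whose log2 difference of SA/SA minus WT was 0.35 in the low numbers and -0.12 in the high numbers (edgeR adjusted p = 0.366).

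The immunosubunits were set beside other interferon-induced genes of antigen presentation, mouse by mouse and with no test. The median deviation from the mean of 8 mice, on the log2 scale, was 0.44 in WT replicate 2 and 0.43 in SA/SA replicate 2 for the 3 immunosubunits, and 0.28 and 0.29 for a list of 13 genes such as Tap1 and Gbp2. SA/SA replicate 4 was low in both, at -0.35 and -0.28. WT replicate 1 was lowest for the list, at -0.35, and stood at -0.11 for the immunosubunits. In sum the list was between 3488 and 4236 CPM over the 8 mice, and no gene of it was at 0 in all mice. SA/SA replicate 3 was at 0.23 for the immunosubunits and 0.04 for the list. Of the cell markers, those of Kupffer cells and macrophages summed highest in SA/SA replicate 2, at 432 CPM with 8 of 8 genes above their mean, and lowest in WT replicate 2, at 187 CPM. Those of cholangiocytes summed highest in WT replicate 2, at 85.4 CPM against 27.1 to 51.2 CPM in the other mice, and the 1 tested marker of pancreatic acinar cells was at 9.49 CPM in that mouse against at most 0.554 CPM in the others. Lymphocyte and plasma cell markers summed highest in SA/SA replicate 3. The part of interferon signalling or of these cells in the pattern was not tested.

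**Figure D5:**
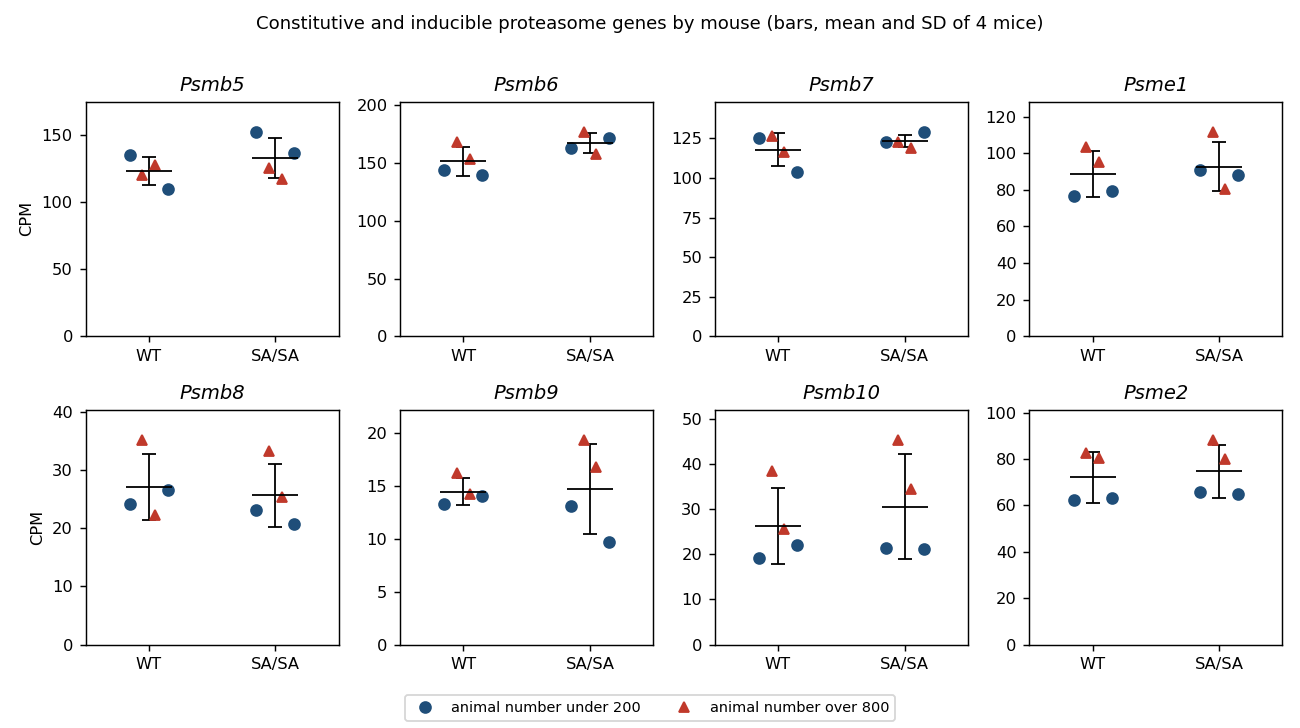
CPM of the constitutive catalytic subunits (Psmb5, Psmb6, Psmb7), the immunosubunits (Psmb8, Psmb9, Psmb10) and the activator subunits Psme1 and Psme2, with 1 point per mouse, by genotype (x axis) and animal number (colour and shape). Bars are means and SDs of 4 mice; for Psme2 the mice numbered over 800 lie between 79.9 and 88.0 CPM and those under 200 between 62.2 and 65.7.

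Some of these genes share stretches of sequence with other genes, here called copies, between which salmon may have had to divide reads. Of 48 genes, 9 shared more than 10% of the 31-base words of their transcripts with transcripts of other genes. The share was 71.7% for Psmb5, 58.7% for Psma5, 33.5% for Psme2, 32.2% for Psmc1 and 31.6% for Psmd2. The copy of Psme2, Psme2b, had 62 to 102 counts per mouse, where Psme2 had 3028 to 4256. Of the genes sharing the most words, it had the most counts. For Psmb5 and Psmb3 the genes sharing the most words, Gm3375 and AC114990.1, were not found by symbol in the count table. A division of reads with them was therefore not shown. Levels of these 9 genes are uncertain to the extent that reads were divided between copies. Another gene shared exon bases on the opposite strand with 11 of the 48, Psmb8, Psmb9, Psmd9 and Psme1 among them.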

How the data were processed

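RNA of liver from 4 WT and 4 SA/SA mice was sequenced from stranded mRNA libraries. The values deposited by the authors are salmon estimated counts of genes, scaled for transcript length and not for library size. The submitters' processing notes name GRCm38, STAR and DESeq2 among other tools; the annotation release and the use of strand are not given in the sources used here. Each column was matched to a mouse by its animal number, and 0 columns were left unused.

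The estimated counts were rounded, and 14629 genes passing filterByExpr were fitted over all 8 mice with the quasi-likelihood test of edgeR 4.0.16 (R 4.3.3; TMM, Benjamini-Hochberg adjustment over all genes). CPM uses TMM-scaled library sizes, and log2 CPM a prior count of 2. An exact permutation test (two-sided, 70 splits of the mice) was run on the log2 CPM of each member. Whether mice within a genotype were littermates is not stated, so p-values measure the spread between these mice. The members and gene lists were chosen with earlier results of these data known. Genes named were the catalytic and inducible subunits, the gene of each role with the highest and the lowest log2 fold change, those with unadjusted p under 0.05 or without overlap, and 5 pathway genes (Nfe2l1, Nfe2l2, Pomp, Adrm1 and Sem1). Other pathway genes and cell markers are given by count or sum, and 1 gene of the interferon list is not reported here.

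Gene coordinates and lengths are those of GENCODE M21 (GRCm38), in which 45143 of 45706 identifiers were found. Of the 37 pathway genes, 3 were matched by identifier under an older symbol. Promoters come from RefSeq (GRCm38.p6). Alternatives were DESeq2 1.42.0, limma-voom (limma 3.58.1), other scaling factors and filters, a robust fit, blocks for replicate and animal number, and leaving out each mouse. No library was a copy of another (smallest chi-square per gene 40.2). The tests were checked on simulated counts. Whether replicate numbers pair the mice is not stated, and they were fitted only in the replicate block. Counting error was largest for Psma8, at 13 to 45 counts per mouse. It was also not negligible beside the spread between mice for Psmg1, at 629 to 957 counts and a coefficient of variation of 5.84%.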

Additional observations from a re-analysis of the deposited data

Results flagged for a closer look

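In groups of 4 mice, a single mouse was taken as standing far from the others when the share of the range taken by its gap to the nearest exceeded Dixon's 95% critical value. Of 54 groups searched, over the 27 named genes, 2 held such a mouse, where chance gives about 1 in 20. Psmd13, a lid subunit, was at 103 CPM in WT replicate 1 (103.175) against 74.7 to 78.7 CPM in the other WT mice, with a gap of 0.860 of the range; Sirt3 shares exon bases with it on the opposite strand. Psma8 was at 0.744 CPM in SA/SA replicate 2 (0.744485) against 0.415 to 0.426 CPM in the other SA/SA mice, with a gap of 0.966 of the range and few counts. Their causes were not tested.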

How the results depend on the processing

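The absence of calls among the 47 genes between genotypes held under DESeq2, limma-voom, other scaling factors and filters, a robust fit, blocks for the replicate and for the animal number, and without each mouse; over the whole table DESeq2 called 6 genes and none of the 47. The median log2 fold change of the 47 genes stayed above 0 in every setting, from 0.05 to 0.13 when mice were left out. The median r among the 32 constitutive subunits, Psma8 included, was 0.698 with library size alone, against 0.553, and 0.464 to 0.641 when mice were left out. With the union of exons as length, the median level was 43.2 CPM per kilobase in place of 64.4, and Psmb5 in place of Psmb6 was highest. Of 485 values of 27 named genes under alternatives, 461 kept their direction, and 24, of 8 genes, turned, none beyond 0.125 in size. The smallest adjusted p over these genes and alternatives was 0.798. Psmb9 turned to -0.0306 with limma-voom, -0.0254 with library size alone, -0.0154 with the replicate block and -0.00851 with the animal number block, and ranged from -0.125 to 0.183 when mice were left out. With library size alone Psmc6 turned to -0.0235 and Psmd13 to -0.00347. When mice were left out, the ranges were -0.0732 to 0.125 for Psmc6, -0.0178 to 0.154 for Psmd13, -0.508 to 0.0441 for Psma8, -0.0291 to 0.455 for Psmb10, -0.219 to 0.0757 for Psmb8, -0.0291 to 0.146 for Psme1 and -0.0340 to 0.120 for Psme2. Of genes that kept their direction, these moved by over 1.5 times without 1 mouse: Nfe2l1 (0.02 to 0.27), Nfe2l2 (-0.31 to -0.11), Pomp (0.09 to 0.23), Sem1 (0.07 to 0.24), Psmb5 (0.04 to 0.17), Psmb7 (0.01 to 0.10), Psmd10 (-0.22 to -0.09), Psme3 (0.04 to 0.14), Psme4 (-0.18 to -0.06), Psmf1 (0.01 to 0.13), Psmg2 (-0.14 to -0.01) and Psmg4 (0.08 to 0.27). In the comparison by animal number, added after the data were seen, DESeq2 called 2 of the 47 genes and edgeR with no filter on low counts called 1 (514 genes in all), and 0 to 1 when mice were left out. Whether replicate numbers pair the mice is not stated, and same-numbered mice also shared the range of animal numbers. Deviations of same-numbered mice had r of 0.06, 0.17, -0.11 and 0.13. Among mice of the other genotype, 3 of 4 WT mice and 2 of 4 SA/SA mice were most like the mouse of their own number. The replicate block called 0 members, with a median of 0.10.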
